A study of Homo sapiens with 18 samples.

Results

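The mRNAs of the mitochondrial protein import machinery were examined in DU145 cells, an established human prostate carcinoma line, after GC7. The members were chosen by gene symbol: the numbered TOMM and TIMM genes, together with TIMMDC1, PAM16, GRPEL1, GRPEL2, CHCHD4, GFER, MTX1, MTX2, SAMM50, PMPCA and PMPCB. This gave 35 members among the 15747 genes of the fraction table and 36 among the 44682 genes of the whole-cell table, where TOMM20L was the additional one. The rule used no measured value.

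RNA was taken from 6 groups with 3 libraries each, 18 in all: heavy polysomes of GC7-treated and of vehicle-treated cells, cytoplasm of GC7-treated and of vehicle-treated cells, and whole cells with GC7 and with vehicle. GC7 was given at 40 µM for 24 h. It inhibits deoxyhypusine synthase, the enzyme that starts the conversion of a lysine of the translation factor eIF5A into hypusine. The study asked how blocking that conversion alters mRNA abundance and the loading of mRNAs on ribosomes. All groups were 1 cell line, and the labels do not say that the libraries of a group were grown as separate cultures, so the p-values reflect library-to-library spread alone, and that may be technical. Per the labels' protocols, cells received emetine, which holds ribosomes on their mRNAs, and the lysate loaded on the gradients had been cleared of nuclei and of mitochondria. An mRNA bound to the mitochondrial surface could therefore have left with the pellet, which was not tested.

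The deposited tables hold comparisons between GC7 and vehicle and no values of single libraries, so no SD or depth per library can be given. The authors' mean normalized counts, which pool GC7 and vehicle libraries, summed to 32579359 in polysomes and 29272958 in cytoplasm. The epithelial markers KRT8, KRT18 and KRT7 had mean normalized counts between 18621 and 47928 in both fractions, and CDH1 and EPCAM between 267.8 and 820.3. COL1A1, a gene of stromal cells, was at 56.5 in polysomes and 62.5 in cytoplasm. A positive log2 fold change is read here as higher with GC7. Neither table states its numerator, and on the opposite reading every direction given here turns round. Fold changes of the fractions are the authors' shrunken values unless called unshrunken, and a fraction difference was called at an adjusted p under 0.05 by the authors' deposited table. In RNA from many cells, less RNA in each cell and fewer cells that contain it cannot be told apart.

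Most mitochondrial proteins are encoded in the nucleus, made on cytosolic ribosomes and imported. They enter through the TOM complex of the outer membrane, from which the TIM23 complex and its PAM motor carry proteins with a presequence into the matrix, where the peptidase MPP removes it. The small TIM chaperones and the TIM22 complex serve carrier proteins, the SAM complex inserts beta-barrel proteins into the outer membrane, and the MIA pathway traps cysteine-rich proteins of the intermembrane space by disulfide bonds. The enzymes that cut and modify mitochondrial tRNAs, named in the title of the study, reach the matrix by this route. Hypusinated eIF5A helps ribosomes through stretches that they translate slowly, such as consecutive prolines, and in budding yeast the import receptor Tim50 is known as an eIF5A-dependent protein with such a stretch.

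Runs of at least 3 consecutive proline codons are shown first because of that known role of eIF5A. Among the GENCODE v44 canonical coding sequences (GRCh38), 3 of 35 members held such a run (8.57%), against 3374 of 12859 genes with a complete reading frame (26.2%). The members were shorter, with a median coding length of 615 bases against 1401 over those 12859 genes. Genes with a run were longer than genes without one (medians of 2040 and 1245 bases). The shares are not matched for length, and the part of length in their difference was not tested. Human TIMM50 held none. The runs lie in TOMM40, the beta-barrel pore of the TOM complex, in TOMM20, its presequence receptor, and in TIMMDC1, a relative of the TIM17 proteins that serves complex I assembly. Each is printed on the coding strand with the codons of the run in capitals, and proline codons outside a run are in lower case.
TOMM40 exon 1, codons 14 to 18 of 361, chr19:44891437-44891487, plus strand: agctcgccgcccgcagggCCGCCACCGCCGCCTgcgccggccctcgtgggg
TOMM40 exon 1, codons 26 to 30 of 361, chr19:44891473-44891523, plus strand: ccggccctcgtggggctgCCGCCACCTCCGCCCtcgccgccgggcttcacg
TOMM20 exon 4, codons 115 to 117 of 145, chr1:235113792-235113836, minus strand: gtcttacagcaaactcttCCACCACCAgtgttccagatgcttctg
TIMMDC1 exon 1, codons 4 to 6 of 285, chr3:119498734-119498769, plus strand: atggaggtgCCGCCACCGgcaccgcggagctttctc

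The 3 members with a proline run had a median unshrunken polysomal log2 fold change of -0.01 and none was called in either fraction. The median was -0.02 over all 3374 genes with a run and -0.02 over the genes without one. Of those 3374 genes, 9.75% were called in polysomes and 4.18% in cytoplasm, so the absence of calls among 3 members says little. TOMM40, with its pair of 5-codon runs, had a polysomal log2 fold change of -0.26 (SE 0.13, adjusted p = 0.114) by the authors' deposited table. TOMM20 had -0.01 (SE 0.10, adjusted p = 0.995) and TIMMDC1 had 0.06 (SE 0.11, adjusted p = 0.768) by the authors' deposited table. TIMM50, the human counterpart of the yeast receptor, had a polysomal log2 fold change of 0.12 (SE 0.12, adjusted p = 0.500) by the authors' deposited table, with a 95% interval of the unshrunken value from -0.10 to 0.43.

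In heavy polysomes, 4 of 35 members were called (11.4%), against 11.1% of all 15747 genes, so the share of members called was close to that of all genes. TOMM40L, TIMM17A and TIMM23 fell with GC7 (8.57% of members, against 5.48% of all genes) and PMPCB rose (2.86%, against 5.61%). In cytoplasm, 3 of 35 were called (8.57%, against 4.24% of all genes): PMPCA and TOMM40L fell (5.71%, against 1.95%) and TIMM9 rose (2.86%, against 2.29%). TOMM40L was the only member called in both fractions. In whole cells, 0 of 36 members had an unadjusted p under 0.05 by the authors' deposited table, against 2.99% of all genes. The share was 5.01% of the genes taken to have reads and 3.11% of the 14103 genes also measured in the fractions. Genes at a repeated log fold change of 0.0711, as deposited, were taken to have no reads, since no counts were given. After Benjamini-Hochberg adjustment over all genes the smallest whole-cell p of any gene was 0.642.

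Without adjustment for the number of genes, 10 members had a p under 0.05 in polysomes, against 23.3% of all genes. Of these 8 were lower with GC7 (12.1% of all genes were), with TOMM40, TOMM5, TOMM6, TIMM13 and TIMM10B added to the 3 named above, and 2 were higher (11.2% of all genes were), PMPCB and TIMM44. In cytoplasm 7 members had an unadjusted p under 0.05, against 15.4% of all genes. Of these 4 were lower (8.13% of all genes were), with TOMM40 and MTX1 beside PMPCA and TOMM40L, and 3 were higher (7.31% of all genes were), TIMM9, TOMM20 and PMPCB. The members that passed without adjustment alone are listed and not called.

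The changes were small. The unshrunken 95% interval lay within a 2-fold change in either direction for 35 of 35 members in polysomes, against 79.8% of all genes, and for 28 of 35 in cytoplasm, against 58.8%. The median member stood at the 86.6th percentile of cytoplasmic level per length, and the part of abundance in these narrow intervals was not tested. The median polysomal log2 fold change was -0.08 over the members and -0.0049 over all genes by the authors' deposited table, with 21 of 35 members below 0 (60%), against 51.5% of all genes. In cytoplasm the medians were -0.03 over the members and -0.0036 over all genes by the authors' deposited table, with 18 of 35 members below 0 (51.4%), against 51.3%. Without shrinkage the member medians were closer to each other, -0.11 in polysomes and -0.09 in cytoplasm, and those over all genes were -0.01 in both. In whole cells, with the sign reversed, they were -0.06 over the members and -0.0348 over the 14103 genes by the authors' deposited table, with 20 of 36 members below 0, against 53.1%.

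**Figure D1:**
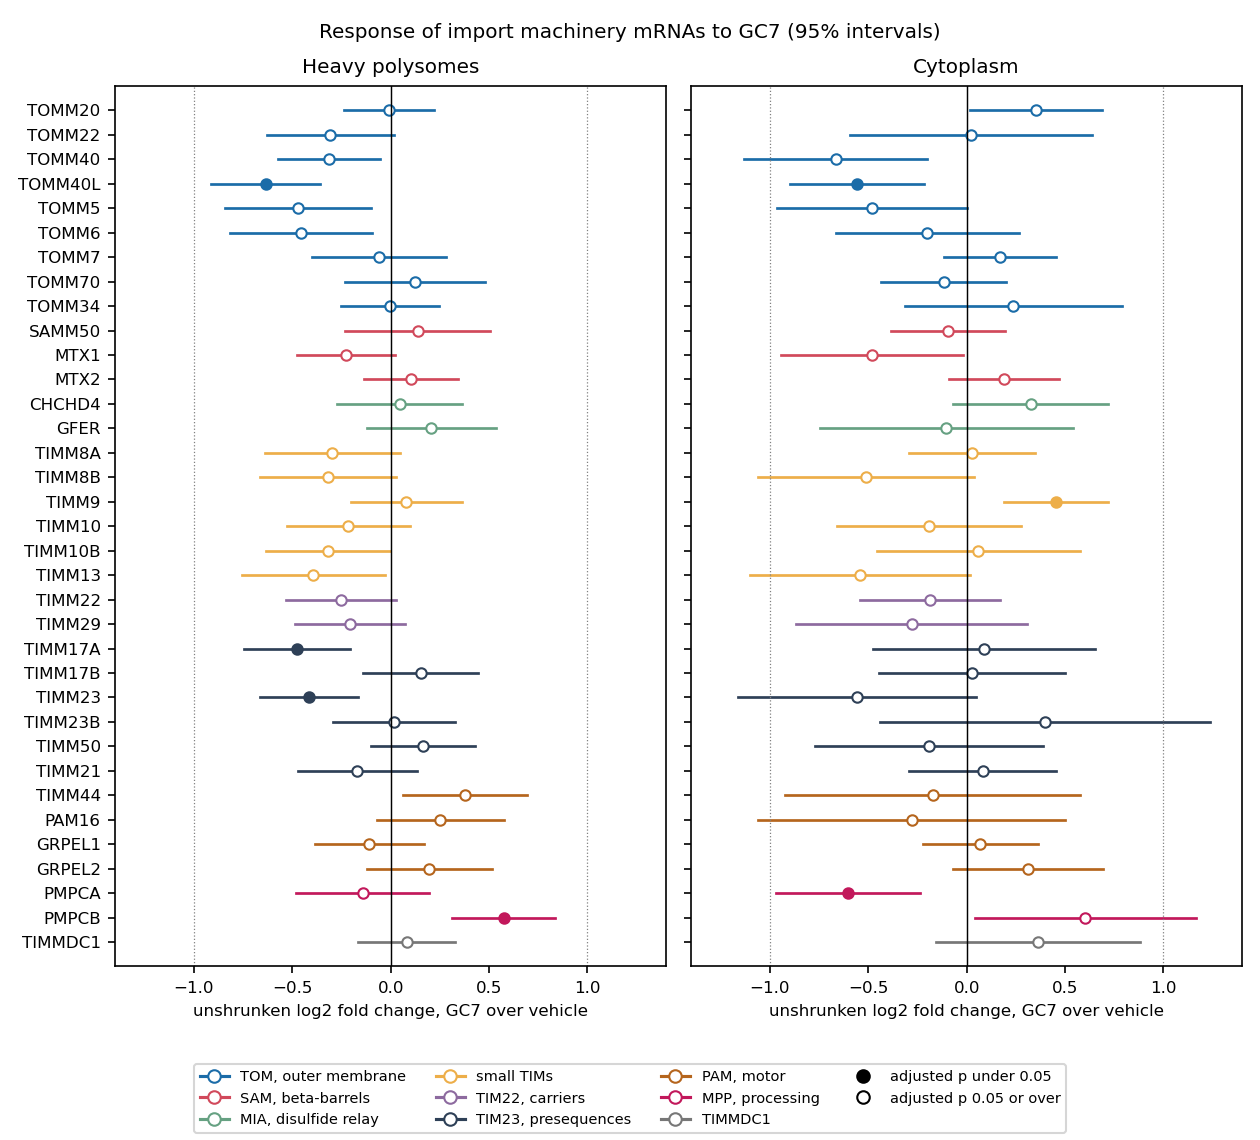
Unshrunken log2 fold change of GC7 over vehicle for the 35 members, by role, in heavy polysomes (left) and cytoplasm (right). Points are estimates, bars 95% intervals, and filled points mark an adjusted p under 0.05: 4 in polysomes and 3 in cytoplasm, with TOMM40L below 0 in both.

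Of the 9 mRNAs with a TOMM symbol, 8 lay below 0 in polysomes (88.9%, against 51.5% of all genes) and 5 in cytoplasm (55.6%, against 51.3%). The median unshrunken values were -0.31 and -0.12. Their median coding length was 435 bases, and 72.5% of genes of up to 600 coding bases lay below 0 in polysomes. The part of length was not tested. Of those below 0 in polysomes, TOMM34 (-0.0014), TOMM20 (-0.0069) and TOMM7 (-0.035) lay close to it by the authors' deposited table. TOMM40L (chr1:161226060-161230746, plus strand), a paralog of the pore protein, had a polysomal log2 fold change of -0.58 (SE 0.15, adjusted p = 0.000326) by the authors' deposited table. The unshrunken value was -0.63 (95% interval -0.91 to -0.36), which means that it fell by 35.6%. In cytoplasm TOMM40L had -0.46 (SE 0.18, adjusted p = 0.0368) by the authors' deposited table, and in whole cells -0.48 (unadjusted p = 0.293) with the sign reversed. TOMM40 itself (chr19:44891254-44903689, plus strand) had -0.49 in cytoplasm (SE 0.26, adjusted p = 0.0915) by the authors' deposited table, and its unshrunken intervals, -0.57 to -0.06 in polysomes and -1.13 to -0.20 in cytoplasm, lay below 0 without passing the adjusted threshold.

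None of the import receptors was called. TOMM20 had an unshrunken interval from -0.24 to 0.22 in polysomes and from 0.02 to 0.69 in cytoplasm, where its log2 fold change was 0.25 (SE 0.17, adjusted p = 0.289) by the authors' deposited table. TOMM22, the central receptor, had -0.22 in polysomes (SE 0.16, adjusted p = 0.244) and 0.01 in cytoplasm (SE 0.17, adjusted p = 0.984) by the authors' deposited table. Its unshrunken polysomal value of -0.31 was the median of the mRNAs with a TOMM symbol. TOMM70, the receptor for carrier proteins, had 0.07 in polysomes (SE 0.14, adjusted p = 0.759) and -0.07 in cytoplasm (SE 0.13, adjusted p = 0.782) by the authors' deposited table. Of the small subunits that sit beside the pore, TOMM5 and TOMM6 missed the threshold in polysomes, with -0.35 (SE 0.20, adjusted p = 0.0837) and -0.34 (SE 0.19, adjusted p = 0.0865) by the authors' deposited table, while TOMM7 had -0.03 (adjusted p = 0.892).

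None of the 5 members assigned to the SAM complex and the MIA pathway was called in either fraction. SAMM50, the beta-barrel core of the SAM complex, had 0.08 in polysomes (SE 0.15, adjusted p = 0.773) and -0.06 in cytoplasm (SE 0.12, adjusted p = 0.814) by the authors' deposited table. CHCHD4, the oxidoreductase of the MIA pathway, had 0.03 in polysomes (SE 0.13, adjusted p = 0.914) and 0.19 in cytoplasm (SE 0.18, adjusted p = 0.446) by the authors' deposited table. GFER, which reoxidizes CHCHD4, had 0.13 in polysomes (SE 0.14, adjusted p = 0.509) and -0.03 in cytoplasm (SE 0.17, adjusted p = 0.921) by the authors' deposited table.

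Of the 6 small TIM chaperones, 5 lay below 0 in polysomes (83.3%) and none was called there, with a median unshrunken value of -0.31. All 6 are short, and 72.5% of genes of up to 600 coding bases lay below 0 in polysomes. TIMM9 (chr14:58408495-58427531, minus strand), which forms a hexameric chaperone with TIMM10, was the exception in direction. It rose in cytoplasm, with a log2 fold change of 0.39 (SE 0.14, adjusted p = 0.0241) by the authors' deposited table and an unshrunken interval from 0.19 to 0.72. In polysomes TIMM9 had 0.05 (SE 0.12, adjusted p = 0.816) by the authors' deposited table. Its partner TIMM10 had -0.15 in polysomes (SE 0.14, adjusted p = 0.451) and -0.08 in cytoplasm (SE 0.16, adjusted p = 0.760) by the authors' deposited table. TIMM22, the channel for carrier proteins, had -0.19 in polysomes (SE 0.13, adjusted p = 0.282) and -0.11 in cytoplasm (SE 0.15, adjusted p = 0.672) by the authors' deposited table.

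The TIM23 complex held both of the other mRNAs that fell in polysomes. TIMM17A (chr1:201955503-201970664, plus strand), a channel subunit whose protein is known to be degraded when cells attenuate translation under stress, had -0.41 (SE 0.14, adjusted p = 0.00982) by the authors' deposited table and an unshrunken interval from -0.74 to -0.20. In cytoplasm TIMM17A had 0.03 (SE 0.17, adjusted p = 0.920) by the authors' deposited table, with a wide unshrunken interval from -0.47 to 0.65. Its paralog TIMM17B had 0.10 in polysomes (SE 0.13, adjusted p = 0.597) and 0.01 in cytoplasm (SE 0.15, adjusted p = 0.981) by the authors' deposited table. The difference between the paralogs was not tested.

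TIMM23 (chr10:45972489-46003742, plus strand), the other channel subunit, had -0.36 in polysomes (SE 0.13, adjusted p = 0.0151) by the authors' deposited table and an unshrunken interval from -0.66 to -0.17. In cytoplasm TIMM23 had -0.23 (SE 0.27, adjusted p = 0.374) by the authors' deposited table. Without shrinkage TIMM23 had -0.56 in cytoplasm, with a wide interval from -1.16 to 0.05, beside -0.41 in polysomes. The fall of TIMM23 was therefore not shown to differ between the fractions. TIMM23B is a near-identical copy, so reads can be split between them and both values are uncertain; it had 0.01 in polysomes (SE 0.13, adjusted p = 0.970) by the authors' deposited table. TIMM50 (chr19:39480838-39493779, plus strand), had -0.06 in cytoplasm (SE 0.17, adjusted p = 0.813) by the authors' deposited table. The complex thus contained members that fell beside members with values near 0.

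None of the 4 members assigned to the PAM motor, TIMM44, PAM16, GRPEL1 and GRPEL2, was called in either fraction. HSPA9, the Hsp70 of the motor, is not a member by the symbol rule. It rose in polysomes (1.29, adjusted p = 4.56e-07, by the authors' deposited table) and is described with the partner subunits. TIMM44, which tethers the motor to the channel, had 0.29 in polysomes (SE 0.16, adjusted p = 0.117) and -0.04 in cytoplasm (SE 0.18, adjusted p = 0.880) by the authors' deposited table. PAM16, a J-like regulator of the motor, had 0.17 in polysomes (SE 0.15, adjusted p = 0.378) and -0.06 in cytoplasm (SE 0.19, adjusted p = 0.789) by the authors' deposited table. GRPEL1, the nucleotide exchange factor of the motor, had -0.08 in polysomes (SE 0.12, adjusted p = 0.734) and 0.05 in cytoplasm (SE 0.12, adjusted p = 0.871) by the authors' deposited table.

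The subunits of MPP were called in opposite directions and in different fractions. PMPCB (chr7:103297435-103314686, plus strand), the catalytic subunit, rose in polysomes with 0.52 (SE 0.14, adjusted p = 0.000737) by the authors' deposited table, an unshrunken 1.49-fold increase (95% interval of the log2 value 0.31 to 0.84). In cytoplasm PMPCB had 0.32 (SE 0.30, adjusted p = 0.269) by the authors' deposited table. Without shrinkage PMPCB had 0.60 in cytoplasm (95% interval 0.04 to 1.16), beside 0.57 in polysomes. Its rise was therefore not shown to differ between the fractions. PMPCA (chr9:136410658-136423761, plus strand), the subunit that recognizes substrates, fell in cytoplasm with -0.50 (SE 0.20, adjusted p = 0.0343) by the authors' deposited table and an unshrunken interval from -0.97 to -0.24. In polysomes PMPCA had -0.09 (SE 0.14, adjusted p = 0.689) by the authors' deposited table.

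The other 10 members, TOMM34, MTX1, MTX2, TIMM8A, TIMM8B, TIMM10B, TIMM13, TIMM29, TIMM21 and GRPEL2, were called in neither fraction. In polysomes they ran from -0.28 (TIMM13) to 0.13 (GRPEL2) by the authors' deposited table. In cytoplasm they ran from -0.28 (MTX1) to 0.19 (GRPEL2) by the authors' deposited table.

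In whole cells, with the sign reversed, the member with the smallest unadjusted p was TIMM44, with 0.74 (p = 0.125) by the authors' deposited table. Member values ran from -1.05 for TIMM21 (p = 0.308) to 2.64 for PAM16 (p = 0.195) by the authors' deposited table. Members called in a fraction had -0.44 (TIMM17A, p = 0.489), -0.15 (TIMM23, p = 0.709), -0.11 (PMPCB, p = 0.864), -0.29 (PMPCA, p = 0.430) and -0.03 (TIMM9, p = 0.971) by the authors' deposited table. Sizes are not set against those of the fractions, since the fraction values are shrunken and the whole-cell values are not known to be.

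The change in translational efficiency was taken as the polysomal minus the cytoplasmic unshrunken log2 fold change and tested with a normal test over 15669 genes. None of the 35 members was called at an adjusted p under 0.05, and neither was any other gene (0%). At an unadjusted p under 0.05 the count was 0 of 35 members, against 2.14% of all genes. The smallest member p was 0.0566, for TIMM9, whose difference was -0.38 (SE 0.20). TIMM17A had a difference of -0.56 (SE 0.32, 95% interval -1.19 to 0.06). PMPCA had a difference of 0.46 (SE 0.25, 95% interval -0.04 to 0.96). A call in a single fraction was therefore not shown to be a difference between fractions. Taking the errors of the fractions as correlated at 0.5 brought TIMM9, TIMM17A, PMPCA and TOMM20 under an unadjusted p of 0.05, with a smallest adjusted p of 0.341 among members, and 20 genes in the whole table were then called. The median difference was -0.07 over the members and 0.008 over all genes, with 20 of 35 members below 0, against 49% of all genes.

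Levels were compared per length. In cytoplasm the mean normalized count per kb of transcript ran from 76.7 for TIMM23B to 21267 for TOMM7. The small pore subunits TOMM7, TOMM6 and TOMM5 were the most abundant, with 21267, 17297 and 15470 per kb in cytoplasm. The receptor TOMM70 was at 270.5 and the paralog TOMM40L at 314.5, against 3715 for TOMM40 itself. The polysomal over cytoplasmic mean count, divided by that of the median gene, was lowest for TOMM70 (0.587) and PAM16 (0.594) and highest for TIMM23B (2.10), TIMM10B (1.74) and TIMM17A (1.56). These means pool GC7 and vehicle libraries and come from fractions that were normalized separately, so they carry no error and describe ranks only.

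**Figure D2:**
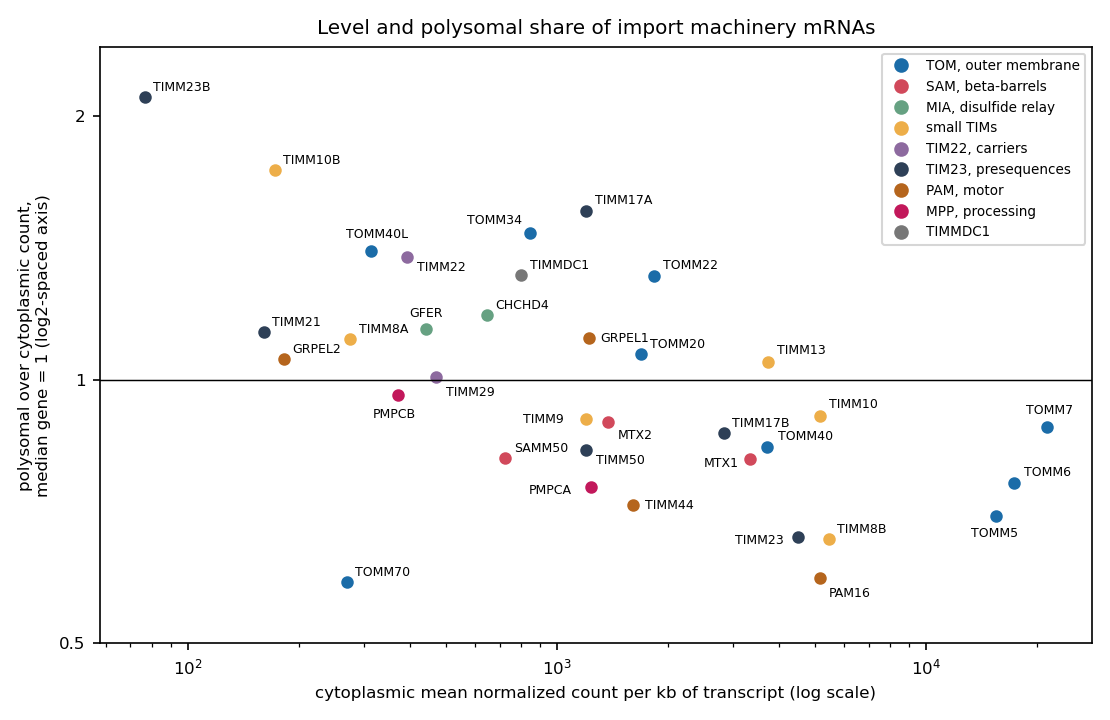
Cytoplasmic mean normalized count per kb of transcript (x, log scale) against the polysomal over cytoplasmic count relative to the median gene (y, log2-spaced axis) for the 35 members, coloured by role. TOMM5, TOMM6 and TOMM7 lie at the right, and TOMM70 and PAM16 are the lowest on the y axis.

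Many import proteins are short: the median coding length was 615 bases over the 35 members and 1398 over all genes. In polysomes the 17 members of up to 600 coding bases had a median unshrunken log2 fold change of -0.25, and the 18 longer ones 0.04. All genes showed the same order, with medians of -0.18 up to 600 bases and 0.0035 above. Of the short members 1 was called lower (5.88%), against 16.2% of the 1659 short genes of the table. In cytoplasm the medians were 0.03 for short members and -0.11 for longer ones, against -0.08 and -0.01 over all genes. Across genes, log coding length and the unshrunken polysomal value had a Pearson r of 0.41 over the 35 members and 0.13 over 12882 genes. In cytoplasm r was -0.04 and 0.03. Genes are not independent replicates, since they share libraries, depth and base composition, and the 600-base bound was chosen with values of these data known.

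**Figure D3:**
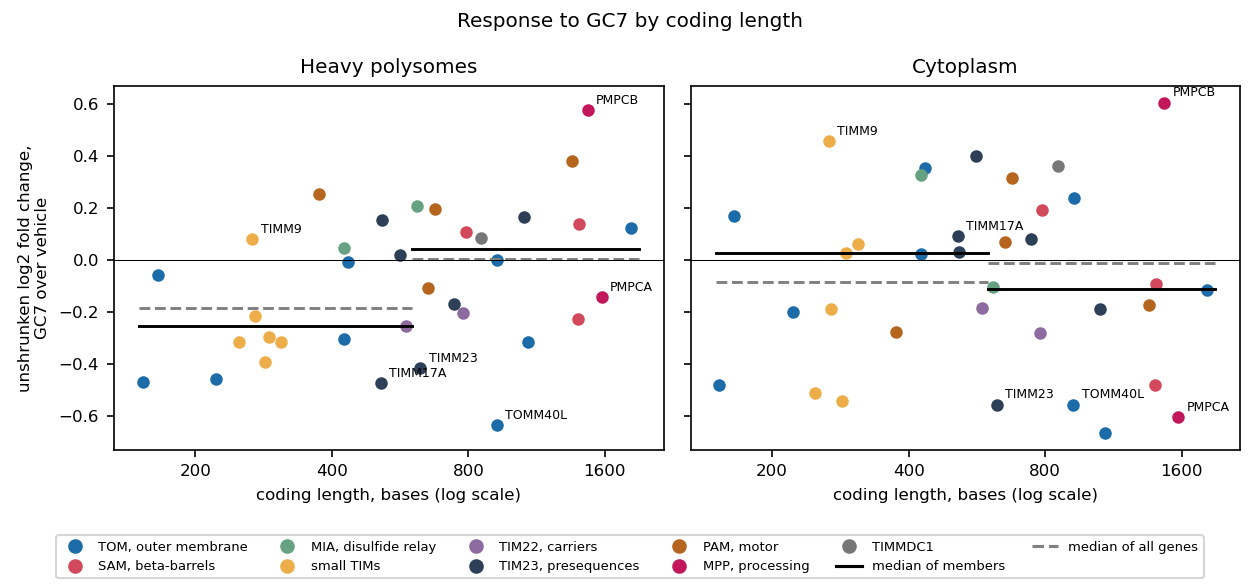
Unshrunken polysomal (left) and cytoplasmic (right) log2 fold change of GC7 over vehicle against coding length (bases, log scale), with 1 point per member coloured by role, and lines for the medians of members (black) and of all genes (dashed grey) up to and above 600 bases. In polysomes short members lie lower (median -0.25 up to 600 bases, 0.04 above); in cytoplasm they do not (0.03 and -0.11).

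Genes that work beside the import machinery were taken from lists drawn up from textbook roles. Of 11 partner subunits, 4 rose in polysomes (36.4%, against 5.61% of all genes) and 1 fell (9.09%, against 5.48%). HSPA9, the Hsp70 of the PAM motor, had 1.29 (SE 0.24, adjusted p = 4.56e-07) in polysomes and 0.09 (SE 0.21, adjusted p = 0.643) in cytoplasm by the authors' deposited table. Both values are shrunken. In translational efficiency none of the 11 passed the threshold, with or without adjustment for the number of genes. The rise of HSPA9 was therefore not shown to differ between the fractions. AIFM1, which anchors CHCHD4, had 0.65 in polysomes (adjusted p = 0.00216) and 0.64 in cytoplasm (adjusted p = 0.0444) by the authors' deposited table, the only call of the list in cytoplasm (9.09% higher, against 2.29% of all genes). AGK, a subunit of the TIM22 complex, had 0.45 (adjusted p = 0.0227), the insertase OXA1L 0.31 (adjusted p = 0.0410) and the outer membrane insertase relative MTCH1 -0.47 (adjusted p = 0.00174) in polysomes by the authors' deposited table.

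Of 9 further peptidases and proteases of imported proteins, 1 fell in polysomes (11.1%, against 5.48% of all genes) and none was called in cytoplasm. It was IMMP1L, a subunit of the inner membrane peptidase, with -0.84 (SE 0.22, adjusted p = 0.000516) by the authors' deposited table. In cytoplasm IMMP1L had -0.78 (SE 0.44, adjusted p = 0.0641) by the authors' deposited table and missed the threshold. Of 14 cytosolic delivery factors, 2 fell in polysomes (14.3%, against 5.48% of all genes). They were the chaperones HSPA8 and DNAJB1, with -0.45 (adjusted p = 0.0466) and -0.28 (adjusted p = 0.0443) by the authors' deposited table, and none was called in cytoplasm. Of 8 genes listed for MICOS, which shapes the cristae, 2 were called in polysomes (25%, against 11.1% of all genes) and 2 in cytoplasm (25%, against 4.24%). The list counts DNAJC11 beside the genes named for MICOS subunits. IMMT rose in polysomes with 0.59 (adjusted p = 0.0116) and in cytoplasm with 0.63 (adjusted p = 0.00335), while MICOS10 fell in polysomes with -0.63 (adjusted p = 0.00281) and DNAJC11 fell in cytoplasm with -0.62 (adjusted p = 0.0409), all by the authors' deposited table.

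Of 19 twin CX9C proteins, the clients of CHCHD4, 7 fell in polysomes (36.8%, against 5.48% of all genes) and none passed the threshold in cytoplasm (1.95% of all genes fell there). The 7 were CHCHD1, COX6B1, COX17, CMC1, CMC2, NDUFS5 and NDUFA8, with values from -0.39 to -0.54 by the authors' deposited table. In polysomes 17 of the 19 lay below 0 (89.5%), against 51.5% of all genes and 72.5% of genes of up to 600 coding bases. In cytoplasm 14 of the 19 lay below 0 (73.7%), against 51.3% of all genes and 58.6% of those short genes. The unshrunken medians of the list were close, -0.28 in polysomes and -0.26 in cytoplasm, and in translational efficiency, the test of the difference between fractions, none of the 19 had an unadjusted p under 0.05. Their median coding length was 273 bases, and short genes as a whole were called lower more often (16.2% up to 600 bases, against 4.43% above); the part of length in the counts of this list was not tested. In whole cells no gene of these lists passed an unadjusted p of 0.05 by the authors' deposited table.

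**Figure D4:**
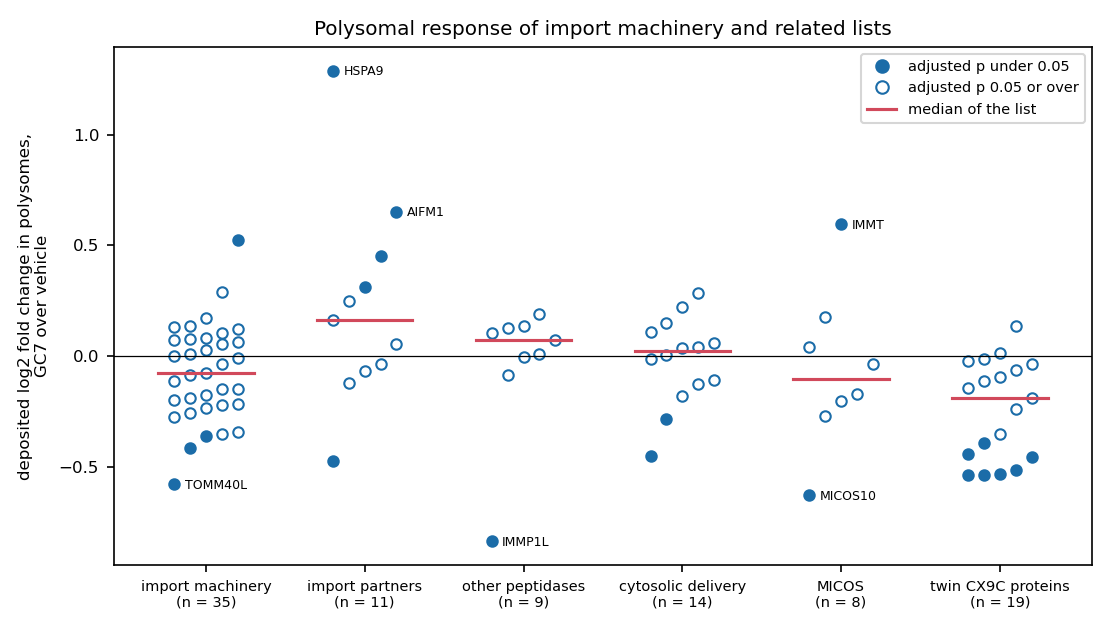
Polysomal log2 fold change of GC7 over vehicle (y) as deposited by the authors, 1 point per gene, for the 35 members and the related lists (x); filled points mark an adjusted p under 0.05 and red lines the median of each list. HSPA9 is the highest point (1.29), and 17 of 19 twin CX9C genes lie below 0.

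Promoters of members that were called, and of the rest, were searched for TGATGNAA on both strands, the element through which ATF4 with a C/EBP partner is known to act; no other motif was searched and matches on both strands count once. RefSeq promoters (GRCh38.p14, 250 bases before to 50 after the start) were matched for 33 members, with none for GRPEL1, TOMM5 and TIMM8B. The element was present in 2 of 33, PMPCB and TIMM22, and in 187 of 11138 promoters of measured genes (1.68%). PMPCB rose in polysomes and TIMM22 was called in neither fraction. The matches are shown on the strand of the gene, where the element reads as its reverse complement, in capitals; a match is a description of letters and not a site.
PMPCB, chr7:103297185-103297253, plus strand: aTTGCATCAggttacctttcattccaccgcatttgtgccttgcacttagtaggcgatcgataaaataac
TIMM22, chr17:996987-997114, plus strand: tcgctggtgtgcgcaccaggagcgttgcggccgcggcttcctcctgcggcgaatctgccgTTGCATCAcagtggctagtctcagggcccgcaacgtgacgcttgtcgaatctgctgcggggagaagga
The first base of the element lies 249 bases before the start of PMPCB and 82 before that of TIMM22.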

How the data were processed

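DU145 RNA of heavy polysomes, cytoplasm and whole cells was compared between GC7 and vehicle, with 3 libraries in each of 6 groups taken from the labels. The submitters' processing notes name STAR 2.7.8a, the build GRCh38 and Salmon 1.4.0, with no role or order. The fraction table holds, per the file headers, the authors' mean normalized count (a score over the libraries of a fraction, GC7 and vehicle together), log2 fold change, SE, p-value and adjusted p-value for 15747 genes, and the whole-cell table holds an unadjusted p-value and a log fold change for 44682. The log2 base of the deposited whole-cell values was read from the values. The whole-cell sign was reversed because its deposited values correlated negatively with those of polysomes (r = -0.46) and cytoplasm (r = -0.35) over 14070 genes. UP in the authors' category was taken to mean more RNA with GC7; both are readings, not statements of the authors. In 1373 names a comma was read as a point.

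Fraction fold changes had been shrunken by the authors. Unshrunken values were recovered with a Cauchy prior (scale 0.205 in polysomes, 0.195 in cytoplasm) fitted to the deposited p-values; the recovered z lay within 0.1 of theirs for 99.5% (polysomes) and 97.4% (cytoplasm) of genes; a gap over 0.5 led to exclusion, which left 15669. Translational efficiency was tested with a normal test that takes the fractions as independent, with Benjamini-Hochberg adjustment over those genes. The recovery and the test were run on simulated data that used the same prior and independent errors in the fractions. The simulation therefore cannot show how either behaves under another prior or correlated errors. Count tests, which were planned, need counts and were not run, and protein sequence features were not analysed here. Coding sequences came from GENCODE 44 and promoters from RefSeq. Python 3.11.15, numpy 2.4.6, pandas 2.3.3, scipy 1.17.1 and matplotlib 3.10.9 were used.

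Named one by one are members called in a fraction, in translational efficiency or at an unadjusted p under 0.05 in whole cells, together with 17 core subunits, and the called genes of the related lists; TOMM5, TOMM6, TOMM7, TIMM10, TIMM21, TIMM23B and TIMMDC1 were added after their values were seen. The members and lists were chosen with earlier results of these data known. Alternatives were other thresholds, adjustments, filters, shrinkage, centring and correlated errors.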

Additional observations from a re-analysis of the deposited data

How the results depend on the processing

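At an adjusted p under 0.01, no member was called in cytoplasm (0 higher, 0 lower), and the authors' category, which also asks for a log2 fold change over 1 in size, held no member in either fraction (0 higher and 0 lower in polysomes, 0 higher and 0 lower in cytoplasm). At an adjusted p under 0.1 in polysomes, 5 members were lower, TOMM5 and TOMM6 being added. For single members the alternatives were unshrunken values, a count filter and a recomputed adjustment, 114 values in all. Under the count filter and the recomputed adjustment every value kept its side of the 0.05 threshold. The unshrunken values, 1 for each of 38 pairs of member and fraction, were compared in sign only. They had no new p-value and are no check of the threshold. None of these alternatives could turn a direction round, so the kept directions are no check. The other thresholds were not among the 114: at an adjusted p under 0.01, 1 member was higher and 2 were lower in polysomes. Without shrinkage, member medians moved from -0.08 to -0.11 in polysomes and from -0.03 to -0.09 in cytoplasm. With the shrunken fold changes, 1 member, TIMM17A, passed an unadjusted p of 0.05 in translational efficiency, and 1 gene of the table was called. No paired analysis was possible because the tables hold no columns of single libraries; for the same reason leaving out a library, a second normalization and count tests were not run. Library depths are unknown. Whole-cell p-values passed no adjustment for any gene, so the absence of whole-cell calls among members says nothing on stability.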

Other observations

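The whole-cell table also lists numbered copies of some members, whose values are given here with the sign reversed. PAM16, with 2.64 (p = 0.195), has a copy at -0.29 (p = 0.801), by the authors' deposited table. The copies of TIMM22 had 0.56 (p = 0.275) and 0.38 (p = 0.434) by the authors' deposited table, beside 0.36 (p = 0.480) for TIMM22 itself. The copy of MTX1 had 0.12 (p = 0.815), beside 0.03 (p = 0.938) for MTX1, by the authors' deposited table. The readthrough transcript TIMM23B-AGAP6 had 0.15 (p = 0.876) by the authors' deposited table. How reads were divided among copies is not given in the sources used here.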
